A study of Mus musculus with 8 samples.

Results

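The SoxB, SoxC, SoxD and SoxE genes described here are the 10 Sox genes Sox1, Sox2, Sox3, Sox4, Sox5, Sox6, Sox8, Sox9, Sox10 and Sox11, taken by gene symbol from a count table of 23284 mouse genes. All 10 symbols were found. RNA was read in 8 libraries of magnetically sorted, GLAST-bearing cells from the whole brain of C57BL/6J mice, with no engineered allele or drug named in the labels. GLAST, the product of Slc1a3, is a glutamate transporter carried by radial glia and by astrocytes. The 4 libraries of postnatal day 0 (P0) are labelled radial glia, and the 4 libraries of postnatal day 8 (P8) are labelled astrocyte precursors. They are called P0 1 to P0 4 and P8 1 to P8 4 here. Whether the libraries of an age came from separate animals, litters or pools is not stated in the labels, so p-values measure the spread between these libraries, part of which may be technical.

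Sox proteins are transcription factors that bind DNA through an HMG box, a domain that fits into the minor groove and bends the double helix. They are sorted into groups by the likeness of that domain and of the rest of the protein. SoxB1 factors hold neural stem and progenitor cells in an undifferentiated state and usually bind beside a partner such as a POU or Pax factor. SoxC factors act in newborn neurons and in committed progenitors. SoxD factors lack a transactivation domain of their own and work by modulating other Sox factors, while SoxE factors drive the choice of glial fate and the differentiation of oligodendrocytes.

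Library totals lay between 30708719 and 94308235 counts. At those depths 3 counts, the limit that a count of 0 allows, correspond to 0.0318 to 0.0977 CPM (counts scaled to a common library total), below the level of every member in every library. Intervals and limits of this kind cover counting error only. The antigen gene Slc1a3 was read in all 8 libraries and rose from 295 ± 46.8 to 4133 ± 603 CPM (SD, n = 4). Markers of other cell types were present at both ages. At P0 the 10 choroid plexus markers summed to between 32169 and 68585 CPM, and at P8 to between 446 and 3787 CPM. The 10 radial glia markers, Slc1a3 among them, summed to between 2050 and 2773 CPM at P0, the age labelled radial glia, and to between 12645 and 15380 CPM at P8, with 8 of the 10 called higher and 2, Vim and Hes1, called lower. The 10 astrocyte markers summed to between 1242 and 1932 CPM at P0 and to between 13923 and 15376 CPM at P8. No library without sorting was included, so enrichment for GLAST-bearing cells was not tested.

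Most of the Sox genes stood higher in the P8 libraries. Tested with edgeR's quasi-likelihood test over 16808 genes and called at a Benjamini-Hochberg adjusted p under 0.05, 8 of the 10 members rose and the other 2, Sox9 and Sox10, were not called. Over all genes tested, 49.5% were called, 24.5% higher and 25% lower at P8. The count of members called lower was 0 by edgeR, and it was also 0 at an unadjusted p under 0.05, by DESeq2 and by limma. As estimated by edgeR, rises of the called members ran from 1.63-fold (Sox5) to 5.13-fold (Sox6). The median log2 fold change of the 10 members was 1.78, beside 0.044 for all genes tested. In 6 members (Sox1, Sox2, Sox3, Sox4, Sox6 and Sox8) every P8 library lay above every P0 library in CPM, an ordering found in 20.9% of all genes tested (47.2% in either direction). With the test's TMM factors, which correct library totals for their make-up, Sox11 and Sox5 joined them, giving 8 members beside 23.6% of all genes tested. Fewer cells of a type and less RNA per cell cannot be told apart in such bulk libraries.

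**Figure D1:**
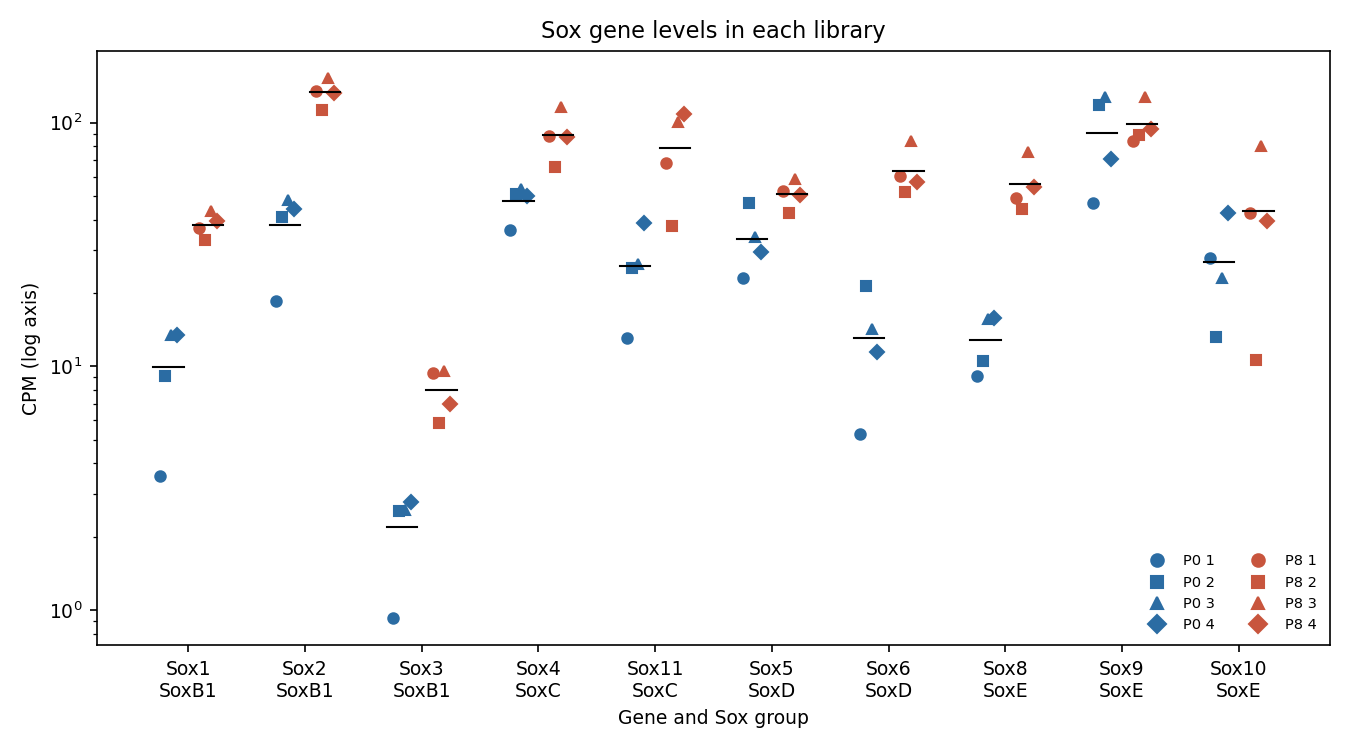
CPM of each Sox gene (log axis) in the 4 P0 libraries (blue) and the 4 P8 libraries (red), with marker shapes for replicate numbers and black bars for the mean of each age. The ages are apart for Sox1, Sox2, Sox3, Sox4, Sox6 and Sox8, and overlap for Sox9 and Sox10 and, without TMM factors, for Sox11 and Sox5.

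**Figure D2:**
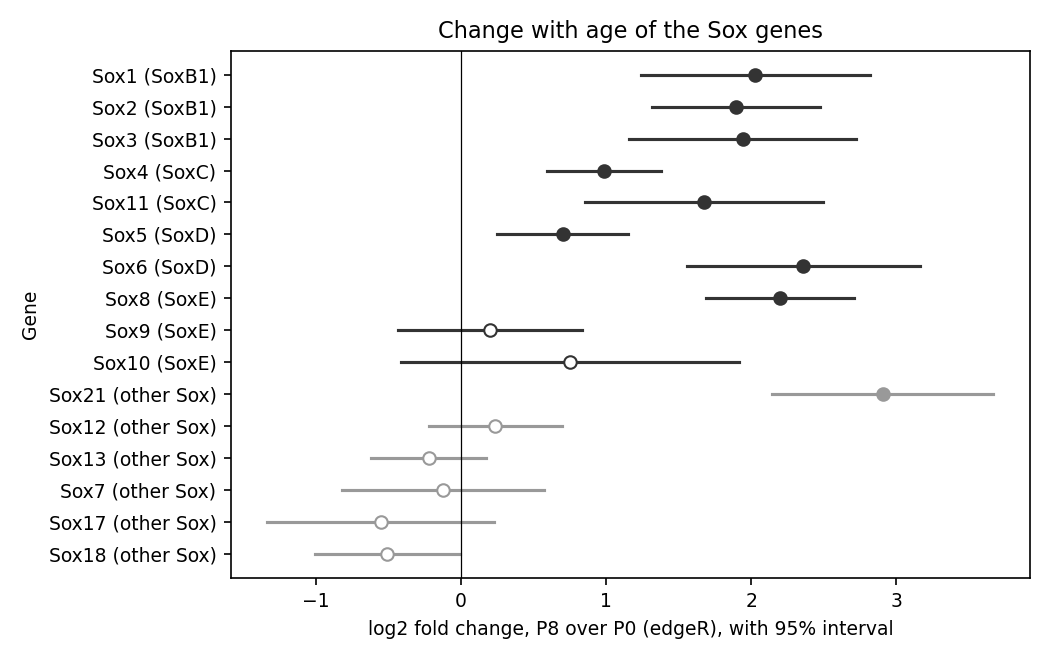
Log2 fold change of P8 over P0 from edgeR with its 95% interval for the 10 members (black) and for 6 other Sox genes (grey), with filled points for genes called at an adjusted p under 0.05. Sox6 (2.36) and Sox8 (2.20) had the highest estimates among the members, and the interval of Sox9 ran from -0.43 to 0.84.

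The SoxB1 genes Sox1, Sox2 and Sox3 encode the progenitor factors of the neural tube and later of the ventricular lining. They rose by nearly equal factors. In the order of replicates 1 to 4, Sox2 stood at 18.6, 40.9, 48.2 and 44.3 CPM at P0 and at 135, 113, 153 and 133 CPM at P8. Its lowest P8 library was above its highest P0 library, and P0 1 was the low one at P0. Mean Sox2 rose from 38.0 ± 13.3 CPM to 133 ± 16.4 CPM (SD, n = 4), which edgeR estimated as a log2 fold change of 1.90 (standard error, SE, 0.26, adjusted p = 0.000261). Sox1 stood at 3.55, 9.15, 13.5 and 13.5 CPM at P0 and at 36.9, 33.2, 43.4 and 39.4 CPM at P8. As with Sox2, the ages did not overlap and P0 1 was lowest. The Sox1 mean rose from 9.92 ± 4.71 to 38.2 ± 4.30 CPM (edgeR log2 fold change 2.03, SE 0.35, adjusted p = 0.00111). Sox3, the X-linked member of the group, stood at 0.924, 2.54, 2.56 and 2.76 CPM at P0 and at 9.42, 5.86, 9.60 and 6.99 CPM at P8. Again no P8 library reached down to the P0 range, and P0 1 was set apart below the other P0 libraries. The Sox3 mean rose from 2.20 ± 0.855 to 7.97 ± 1.84 CPM (edgeR log2 fold change 1.94, SE 0.35, adjusted p = 0.00134). These log2 fold changes of 2.03, 1.90 and 1.94 lay within 1 standard error of each other. The summed radial glia and astrocyte markers were also higher in every P8 library than in any P0 library, and their part in the SoxB1 rise was not tested.

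Sox2 is a gene of 1 exon on chromosome 3 (chr3:34548927-34551383, plus strand, NCBIM37) and lies inside the span of Sox2ot, a long noncoding RNA gene. Sox2ot itself stood higher at P8, at 17.3 ± 3.83 CPM against 6.54 ± 1.79 CPM (edgeR adjusted p = 0.000853). Sox3 is also a gene of 1 exon (chrX:58144545-58146605, minus strand, NCBIM37). In that annotation no exon of another gene overlaps those of Sox2 or Sox3. The library kit does not mark strand, so reads of overlapping exons on opposite strands could not be separated. Among the 9 members found in that annotation, this concerns Sox4 and Sox5, described below. Sox1 was not found there, so its exons were not checked for overlap. The 250 bases before the start of Sox1 (chr8:12395269-12395518, plus strand) and of Sox2 (chr3:34649745-34649994, plus strand), from RefSeq on GRCm38.p6, are shown because both genes rose together. Capitals mark matches to a CCAAT box (CCAAT, or ATTGG where the match is on the other strand).
Sox1: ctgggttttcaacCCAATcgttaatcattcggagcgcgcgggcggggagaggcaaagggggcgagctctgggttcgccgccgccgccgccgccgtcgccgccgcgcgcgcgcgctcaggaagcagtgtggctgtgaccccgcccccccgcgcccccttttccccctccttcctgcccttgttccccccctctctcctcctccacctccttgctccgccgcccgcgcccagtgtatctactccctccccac
Sox2: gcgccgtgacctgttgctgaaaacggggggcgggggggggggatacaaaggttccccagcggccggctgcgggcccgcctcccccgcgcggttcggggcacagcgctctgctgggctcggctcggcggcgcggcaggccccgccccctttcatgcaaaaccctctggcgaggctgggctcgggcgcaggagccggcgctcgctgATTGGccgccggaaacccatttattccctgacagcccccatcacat
G and C make up 71.2% and 72.0% of these windows, against a median of 52.4% over the 32851 promoter windows of the same length. The CCAAT box begins 237 bases before the start in Sox1 and 46 bases before it in Sox2, on opposite strands. On either strand, 33.8% of all windows hold such a match. Neither window holds the octamer ATGCAAAT bound by POU factors (1.60% of all windows), the Sox core AACAAT (9.42%) or the TATA box TATAAA (12.4%).

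The SoxC genes Sox4 and Sox11, which switch on neuronal genes in newborn neurons, were both higher at P8. Sox4 stood at 36.2, 50.8, 53.6 and 49.8 CPM at P0 and at 88.5, 65.8, 115 and 87.5 CPM at P8. Every P8 library lay above the P0 range. The mean rose from 47.6 ± 7.80 to 89.3 ± 20.3 CPM. With TMM factors edgeR estimated a 1.98-fold change (log2 fold change 0.98, SE 0.18, edgeR adjusted p = 0.00128). Sox11 stood at 13.1, 25.2, 26.4 and 38.8 CPM at P0 and at 68.2, 37.8, 100.3 and 109 CPM at P8. Here the ages overlapped, because P8 2 was just below P0 4. With TMM factors that order turned, the lowest P8 level being 40.6 and the highest P0 level 37.8 CPM. The mean rose from 25.9 ± 10.5 to 78.7 ± 32.3 CPM, and edgeR with TMM factors estimated a 3.19-fold change (log2 fold change 1.67, SE 0.37, edgeR adjusted p = 0.00413). Markers of neuroblasts and intermediate progenitors moved with Sox11. Their 12 genes summed to 49.9, 104, 127 and 227 CPM at P0 and to 591, 167, 707 and 625 CPM at P8, so P0 4 was highest among the P0 libraries and P8 2 lowest among the P8 libraries, as for Sox11. Of these 12 markers 8 rose and 4 were not called, and Neurod1 had no read in some libraries. Mature neuron markers summed to 19.4 to 33.1 CPM at P0 and to 401, 45.9, 243 and 372 CPM at P8. The part of neuronal cells in the Sox11 result was not tested.

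**Figure D3:**
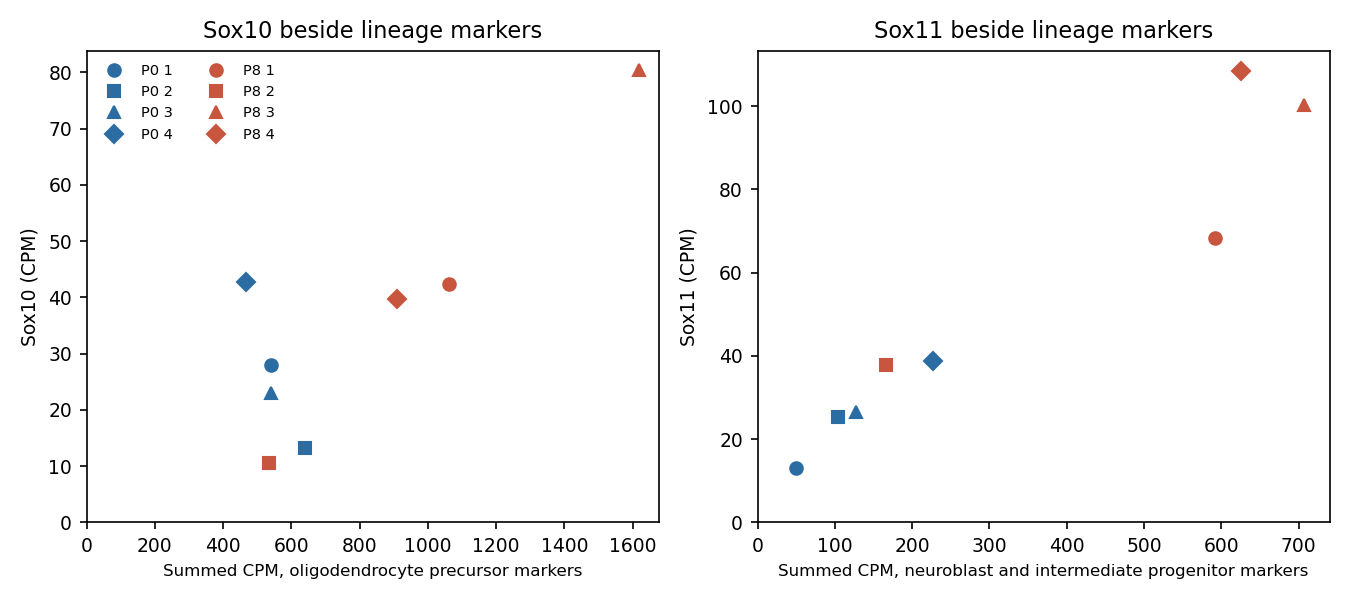
Left, Sox10 CPM against the summed CPM of 8 oligodendrocyte precursor markers, and right, Sox11 CPM against the summed CPM of 12 neuroblast and intermediate progenitor markers, 1 point per library. Sox10 at P8 ran from 10.6 CPM in P8 2, where the precursor sum was 534, to 80.4 CPM in P8 3, where it was 1619. At P0 Sox10 was highest in P0 4, where the precursor sum was lowest, and lowest in P0 2, where it was highest. Pdgfra alone averaged 444 CPM at P0, beside precursor sums of 466 to 641 CPM. Sox11 was lowest in P0 1 and highest in P8 4.

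Sox4 (chr13:29040788-29045582, minus strand) and Sox11 (chr12:28025562-28027574, minus strand, both NCBIM37) each have 1 exon. An exon of Sox4 overlaps the gene Gm17419 on the plus strand. The HMG box of each was read from its GENCODE M1 transcript as 79 codons and is shown from coding base 169 to 405 in Sox4 and 139 to 375 in Sox11. Capitals mark the longest run of letters that the whole transcripts of this pair share, 48 bases.
Sox4: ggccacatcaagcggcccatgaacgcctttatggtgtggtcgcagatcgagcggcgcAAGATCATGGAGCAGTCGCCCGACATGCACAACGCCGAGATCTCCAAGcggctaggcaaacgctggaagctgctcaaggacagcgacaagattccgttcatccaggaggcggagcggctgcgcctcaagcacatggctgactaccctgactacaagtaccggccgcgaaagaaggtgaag
Sox11: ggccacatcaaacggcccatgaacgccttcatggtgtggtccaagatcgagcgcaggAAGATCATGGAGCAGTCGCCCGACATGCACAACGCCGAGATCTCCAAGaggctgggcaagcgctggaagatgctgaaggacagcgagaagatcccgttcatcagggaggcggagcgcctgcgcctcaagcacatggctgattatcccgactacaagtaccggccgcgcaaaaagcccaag
The stretches differed at 25 of 237 bases (89.5% identity), the closest pair among the 9 members whose transcript was read. Sox1 was named only by its symbol, without a transcript. The 6 pairs within a group had 81.4% to 89.5% identity over the HMG box, and the 30 pairs across groups had 53.2% to 71.7%. The longest run shared by whole transcripts of genes of different groups was 30 bases. The read length is not given in the sources used here, so how far the counting could split reads between Sox4 and Sox11 was not tested.

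The SoxD genes Sox5 and Sox6 both rose, with estimates of 1.63-fold and 5.13-fold. In the neural tube their proteins hold back the specification and differentiation of oligodendrocytes, and in cartilage they work beside Sox9. Sox6 stood at 5.28, 21.3, 14.2 and 11.4 CPM at P0 and at 60.3, 51.7, 83.7 and 56.9 CPM at P8, with a wide gap between the ages. The mean rose from 13.1 ± 6.66 to 63.2 ± 14.2 CPM. The edgeR estimate with TMM factors, 5.13-fold, was the highest rise among the members (log2 fold change 2.36, SE 0.36, edgeR adjusted p = 0.000501). Sox5 stood at 23.1, 46.8, 33.9 and 29.4 CPM at P0 and at 52.3, 42.8, 58.7 and 50.6 CPM at P8. The ages overlapped in the pair P0 2 and P8 2, but not with TMM factors, where the lowest P8 level was 45.9 and the highest P0 level 45.1 CPM. With RLE factors, another correction of library totals, they overlapped, the lowest P8 level being 45.7 and the highest P0 level 46.5 CPM. The Sox5 mean rose from 33.3 ± 10.02 to 51.1 ± 6.54 CPM. Its edgeR estimate with TMM factors was 1.63-fold (log2 fold change 0.70, SE 0.20, edgeR adjusted p = 0.0161). The edgeR adjusted p ran from 0.00182 to 0.0438 when each library in turn was left out. The 2 genes are large, with 15 exons in Sox5 (chr6:143776945-144730497, minus strand) and 17 in Sox6 (chr7:122614858-123182258, minus strand, both NCBIM37). Exons of Sox5 overlap 4933415D12Rik on the plus strand.

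The make-up of the pair Sox5 and Sox6 differed between the ages in every library. The third SoxD gene, Sox13, is not a member and was left out of these shares. In RPKM, which is CPM divided by gene length, Sox5 made up 83.5%, 71.7%, 73.4% and 74.8% of the summed level of both genes at P0, and 50.1%, 48.9%, 44.8% and 50.7% at P8, in the order of replicates. The shares of the ages did not overlap. The mean share of Sox5 was 75.9% ± 5.25 at P0 and 48.6% ± 2.66 at P8, and that of Sox6 was 24.1% and 51.4%. An exact two-sided permutation test of that share over the 8 libraries gave p = 0.0286, the smallest that its 70 arrangements can give. Its adjusted p was 0.0952 over the 10 shares tested. Shares within a pair mirror each other, so Sox5 and Sox6 gave the same p, as did Sox4 and Sox11. Both genes of each pair were counted in the adjustment, which lowered this adjusted p. The ratio of Sox6 to Sox5 in RPKM was 0.323 ± 0.0867 at P0 and 1.06 ± 0.118 at P8.

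Of the SoxE genes Sox8 rose, while Sox9 and Sox10 were not called. Sox8, which shares functions with Sox9 and Sox10 in glia, stood at 9.14, 10.5, 15.7 and 15.8 CPM at P0 and at 48.9, 44.4, 75.6 and 54.2 CPM at P8, with no overlap. Its mean rose from 12.8 ± 3.47 to 55.8 ± 13.8 CPM, and edgeR with TMM factors estimated 4.59-fold (log2 fold change 2.20, SE 0.23, edgeR adjusted p = 4.88e-05). This was the lowest adjusted p among the members. Sox9, the factor that starts gliogenesis in the neural tube and remains on in astrocytes, stood at 46.6, 118, 128 and 70.9 CPM at P0 and at 84.1, 89.3, 127 and 93.9 CPM at P8. All P8 libraries lay inside the P0 range. The Sox9 mean was 90.8 ± 38.5 CPM at P0 and 98.6 ± 19.3 CPM at P8. With TMM factors edgeR estimated a log2 fold change of 0.20 with a 95% interval from -0.43 to 0.84 (edgeR adjusted p = 0.58). Without P0 1 the estimate was -0.01, so its sign rested on that library.

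Sox10, the factor of the oligodendrocyte lineage and of neural crest glia, differed more among the libraries of an age than between the age means. It stood at 27.9, 13.2, 22.9 and 42.8 CPM at P0 and at 42.4, 10.6, 80.4 and 39.7 CPM at P8. The lowest and the highest value of all 8 libraries were both at P8, in P8 2 and in P8 3. Its mean was 26.7 ± 12.3 CPM at P0 and 43.3 ± 28.6 CPM at P8. With TMM factors edgeR estimated a log2 fold change of 0.75 with a 95% interval from -0.41 to 1.92 (edgeR adjusted p = 0.257). Leaving out each library in turn gave estimates from 0.30 to 1.07 with adjusted p from 0.0511 to 0.65. Marker sums for the lineages that carry Sox10 also differed between libraries. The 8 oligodendrocyte precursor markers summed to 540, 641, 540 and 466 CPM at P0 and to 1062, 534, 1619 and 908 CPM at P8. At P8, P8 2 was lowest and P8 3 highest for this sum as for Sox10. At P0 only the extremes were the other way round, with Sox10 highest in P0 4, where the sum was lowest. Sox10 was lowest in P0 2, where the sum was highest. Of these markers 6 rose and 1, Pdgfra, fell. Pdgfra alone averaged 444 CPM at P0, beside sums of 466 to 641 CPM. Cspg4 averaged 62.8 CPM at P0 and is also in the list of pericyte, smooth muscle and meningeal markers. The 10 myelin markers summed to 245, 168, 166 and 382 CPM at P0 and to 2215, 650, 2217 and 2532 CPM at P8, with 6 of 9 tested called higher. In some libraries Neu4 of the first list and Mog, Mobp and Opalin of the second had no read. The 9 neural crest and Schwann cell markers summed to 84.9 to 170 CPM at P0 and 33.6 to 41.3 CPM at P8, and 5 of 8 tested fell. How much of the Sox10 level each of these lineages supplied was not tested.

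The HMG box of the SoxE genes is shown because the estimated log2 changes of these 3 close relatives ran from 0.20 to 2.20. It was read from the GENCODE M1 transcripts of Sox8 (coding bases 289 to 525), Sox9 (307 to 543) and Sox10 (304 to 540), and capitals in Sox8 and Sox10 mark the bases that differ from Sox9.
Sox9: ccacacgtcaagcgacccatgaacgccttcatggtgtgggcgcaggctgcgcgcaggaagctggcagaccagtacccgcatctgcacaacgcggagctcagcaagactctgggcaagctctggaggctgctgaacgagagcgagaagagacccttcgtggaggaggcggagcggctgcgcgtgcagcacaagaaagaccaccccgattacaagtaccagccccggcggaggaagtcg
Sox8: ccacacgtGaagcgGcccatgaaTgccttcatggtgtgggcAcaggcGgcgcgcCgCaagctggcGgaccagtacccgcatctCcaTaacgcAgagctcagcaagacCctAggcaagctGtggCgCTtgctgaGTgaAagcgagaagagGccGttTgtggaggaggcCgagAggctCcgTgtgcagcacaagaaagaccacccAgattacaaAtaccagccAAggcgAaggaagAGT
Sox10: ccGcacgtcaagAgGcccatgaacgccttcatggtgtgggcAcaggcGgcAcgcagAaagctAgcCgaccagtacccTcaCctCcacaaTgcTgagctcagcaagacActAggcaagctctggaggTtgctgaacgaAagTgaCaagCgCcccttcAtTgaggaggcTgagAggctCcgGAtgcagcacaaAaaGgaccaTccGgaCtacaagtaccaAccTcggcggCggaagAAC
Sox8 differed from Sox9 at 35 bases (85.2% identity) and Sox10 differed from Sox9 at 40 (83.1%), while Sox8 and Sox10 differed from each other at 44 (81.4%). Across the whole transcripts, untranslated parts included, the longest run of identical letters was 44 bases between Sox9 and Sox10. It was not wholly inside the stretches shown, and whether it lies in coding sequence was not determined. Between Sox8 and Sox9 the longest run was 23 bases. The genes lie apart, Sox8 on chr17:25702837-25707631 (minus strand, 3 exons), Sox9 on chr11:112643538-112649074 (plus strand, 3 exons) and Sox10 on chr15:78985343-78994920 (minus strand, 4 exons), all on NCBIM37.

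Sox8 had a larger share of the SoxE level in every P8 library than in any P0 library. Its share of the summed RPKM of the 3 genes was 12.4%, 9.54%, 11.7% and 13.8% at P0 and 31.2%, 36.8%, 29.5% and 32.7% at P8. The ages did not overlap, and the mean share was 11.9% ± 1.79 at P0 and 32.5% ± 3.11 at P8 (exact two-sided permutation test p = 0.0286, adjusted p = 0.0952 over 10 shares). The share of Sox9 was 59.3% ± 16.5 at P0 and 42.3% ± 7.76 at P8, with overlap (exact permutation test p = 0.143, adjusted p = 0.238). Sox10 took 28.8% ± 14.9 and 25.2% ± 10.8 (exact permutation test p = 0.771, adjusted p = 0.857), and its share had a wide range at both ages, from 13.2% to 41.8% at P0 and from 9.73% to 34.7% at P8. In RPKM the ratio of Sox8 to Sox9 was 0.218 ± 0.0863 at P0 and 0.778 ± 0.0612 at P8. The ratio of Sox10 to Sox9 spanned 0.171 to 0.921 at P0 and 0.182 to 0.968 at P8.

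In the other groups the shares of the ages overlapped. Sox2 made up 82.1% ± 2.41 of the summed SoxB1 RPKM at P0 and 80.3% ± 0.241 at P8 (exact permutation test p = 0.286, adjusted p = 0.393), with Sox1 at 12.4% ± 2.22 and 14% ± 0.572 and Sox3 at 5.54% ± 0.539 and 5.66% ± 0.795. The ratio of Sox2 to Sox1 in RPKM was 6.81 ± 1.46 at P0 and 5.74 ± 0.223 at P8. At P8 it stayed between 5.54 and 6.03 in all 4 libraries. In the SoxC pair of Sox4 and Sox11, without Sox12, Sox4 made up 84.5% ± 4.25 at P0 and 77.1% ± 5.62 at P8. The ages overlapped (exact permutation test p = 0.0857, adjusted p = 0.171). No share passed an adjusted p of 0.05, which this design could reach only if more of the shares had the smallest p. The deposited gene length of Sox11, 8451 bases, is longer than its annotated span on NCBIM37. That of Sox4, 2953 bases, is shorter than its annotated span. RPKM levels and shares of both SoxC genes rest on those deposited lengths.

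**Figure D4:**
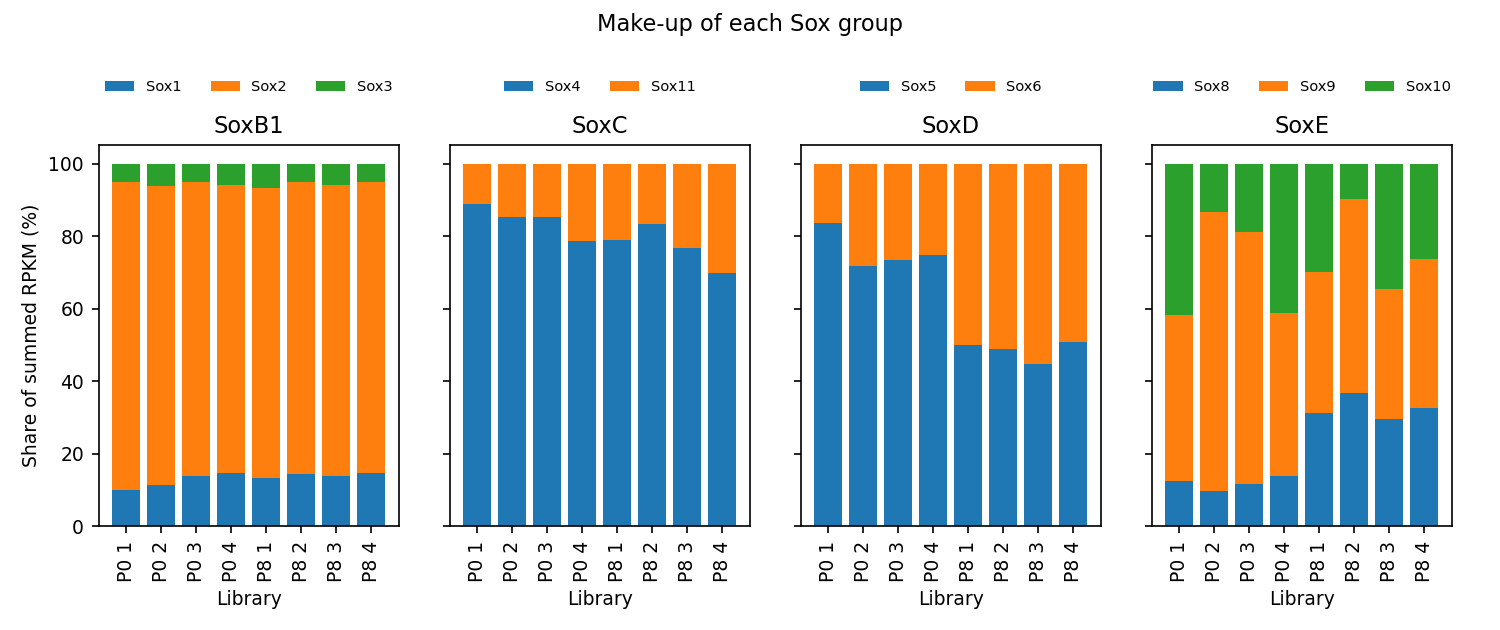
Share of each member in the summed RPKM of the members of its Sox group (%), for SoxB1, SoxC, SoxD and SoxE. Each of the 8 libraries has 1 stacked bar, and Sox12 (SoxC) and Sox13 (SoxD) are not included. Sox6 took 16.5% to 28.3% of the Sox5 and Sox6 sum at P0 and 49.3% to 55.2% at P8. Sox8 took 9.54% to 13.8% of SoxE at P0 and 29.5% to 36.8% at P8.

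Compared per length, the order of the genes differed between the ages. At P0 the mean level was 21.9 ± 9.30 RPKM for Sox9, 16.1 ± 2.64 for Sox4, 15.5 ± 5.41 for Sox2 and 9.84 ± 4.54 for Sox10. Lower levels followed for Sox5 (4.54 ± 1.37 RPKM), Sox8 (4.27 ± 1.16), Sox11 (3.06 ± 1.24), Sox1 (2.46 ± 1.17), Sox6 (1.54 ± 0.784) and Sox3 (1.06 ± 0.414). Every pair of neighbours in this P0 order had overlapping ranges. At P8 Sox2 led with 54.3 ± 6.67 RPKM, ahead of Sox4 (30.3 ± 6.89), Sox9 (23.8 ± 4.66), Sox8 (18.6 ± 4.60) and Sox10 (16 ± 10.5). Sox1 (9.46 ± 1.06 RPKM), Sox11 (9.31 ± 3.82), Sox6 (7.45 ± 1.67), Sox5 (6.96 ± 0.891) and Sox3 (3.86 ± 0.891) came next. In this P8 order the ranges of Sox2 and Sox4 did not overlap, nor did those of Sox5 and Sox3, while all other neighbours overlapped. Among the RPKM means of all genes tested, Sox2 stood at percentile 68.9 at P0 and 91.3 at P8, and Sox9 at 77.3 and 79.4. Sox2 was below Sox9 in P0 1 to P0 3, with a ratio of 0.738 ± 0.215 over the 4 P0 libraries, and above it in every P8 library, with a ratio of 2.32 ± 0.304.

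Summed over a group, SoxB1 genes stood at 19 ± 6.94 RPKM at P0 and 67.7 ± 8.46 RPKM at P8. Sox4 and Sox11 of SoxC stood at 19.2 ± 3.64 and 39.6 ± 10.1 RPKM, and Sox5 and Sox6 of SoxD at 6.08 ± 2.15 and 14.4 ± 2.50 RPKM. These sums, like the shares, leave out the third gene of SoxC and of SoxD, which are not members. Sox12 (SoxC) stood at 9.41 ± 1.86 and 10.5 ± 2.89 RPKM, with means above those of Sox11. Sox13 (SoxD) stood at 10.3 ± 2.06 and 8.39 ± 1.31 RPKM, with means above those of Sox5 and Sox6 at both ages. SoxE genes had the highest sum at P0, 36.0 ± 8.35 RPKM, and stood at 58.3 ± 19.2 RPKM at P8. That mean was below the SoxB1 mean, but in P8 3 the SoxE sum of 85.4 RPKM was above the SoxB1 sum of 77.6 RPKM. All 10 genes together stood at 80.3 ± 20.01 RPKM at P0 and 180 ± 39.5 RPKM at P8.

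Libraries of 1 age differed in the same sense for nearly all members. P0 1 was the lowest P0 library for 9 of the 10 genes, Sox10 being the exception, whereas it was the lowest for 30.7% of all genes tested. Its deviation from the P0 mean in log2 CPM was -1.27 for Sox1, -1.10 for Sox6, -1.07 for Sox3 and -0.91 for Sox2. P0 1 also had the highest sum of pericyte, smooth muscle and meningeal markers, 10880 CPM against 5742 to 8418 CPM in the other P0 libraries. At P8, P8 3 was highest for 9 of 10 members (36.8% of all genes tested), with Sox11 the exception, and P8 2 was lowest for 9 of 10 (38.8% of all genes tested), with Sox9 the exception. P8 3 also had the highest P8 sum of the pericyte, smooth muscle and meningeal markers, 1264 CPM against 509 to 894 CPM in the other P8 libraries. A high sum thus stood beside low Sox levels in P0 1 and beside high ones in P8 3. The part of those other cells in the values of P0 1 and P8 3 was not tested. With P0 1 and P8 2 both left out, a choice made after seeing the data, 8 members were still called higher. Sox10 had its own order at P0, and at P8 its deviations from the mean in log2 CPM were -1.64 in P8 2 and 1.16 in P8 3.

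**Figure D5:**
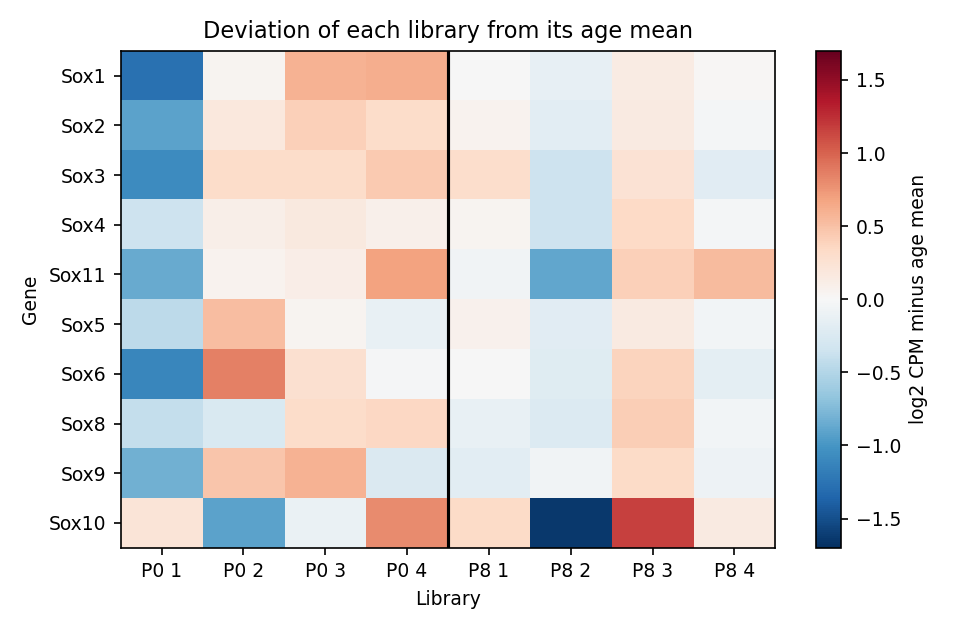
Log2 CPM of each member in each library minus the mean of its age (colour, red above and blue below), with a line between the P0 and P8 libraries. P0 1 is blue for every gene except Sox10, and Sox10 has the widest swing at P8, from -1.64 in P8 2 to 1.16 in P8 3.

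Genes that work with or under each Sox group were counted from lists of textbook partners and targets. Partners of SoxB factors were mostly higher at P8, with 6 of 8 tested called higher, the other 2 not called and a median log2 fold change of 2.47. Over all genes tested 24.5% were called higher and 49.5% in either direction. The POU factor gene Pou3f4 rose from 0.936 ± 0.62 to 7.86 ± 0.586 CPM, the paired-box gene Pax6 from 15.9 ± 7.83 to 120 ± 30.6 CPM and the nuclear receptor gene Nr2e1 from 8.19 ± 3.49 to 57.0 ± 5.86 CPM (edgeR adjusted p = 0.00126, 0.000409 and 4.75e-05). Of 7 tested neural progenitor targets of SoxB factors, 5 rose and 1 fell, with a median of 0.77. The LIM homeobox gene Lhx2 rose from 14.6 ± 8.79 to 101 ± 5.25 CPM and the fatty acid binding protein gene Fabp7 from 372 ± 267 to 2436 ± 431 CPM. Shh, the secreted ligand of the hedgehog pathway, fell from 2.58 ± 0.894 to 0.0943 ± 0.0786 CPM (edgeR adjusted p = 0.000231). Without P8 3, the P8 mean of Shh was 0.0624 CPM. Pax6 and Nr2e1 were counted as partners, and Pax6, like Fabp7 and Nes of the target list, also belongs to the radial glia marker list.

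SoxC targets gave 5 higher of 7 tested and 2 not called, with a median log2 fold change of 1.54. The cell adhesion gene Nrcam rose from 26.4 ± 11.5 to 475 ± 27.4 CPM, the doublecortin gene Dcx from 12.1 ± 8.71 to 95.7 ± 51.3 CPM and the neuronal tubulin gene Tubb3 from 12.9 ± 14.8 to 85.0 ± 42.6 CPM (edgeR adjusted p = 1.6e-05, 0.00415 and 0.0134). Without P0 4 the P0 mean of Tubb3 was 5.52 CPM. Dcx and Tubb3 also belong to the neuroblast marker list. Partners and opposed genes of the SoxD factors went both ways, 3 higher and 1 lower of 7, with a median of -0.03, a called share near the 49.5% of all genes tested. Hes5, a Notch effector that is also in the radial glia marker list, rose from 16 ± 7.35 CPM to a P8 mean of 79 ± 13.6 CPM (edgeR adjusted p = 0.000174). The calls of Fezf2 (1.41 ± 0.833 and 3.56 ± 0.322 CPM, edgeR adjusted p = 0.0459), a factor of deep-layer cortical neurons, and of Pdgfra (444 ± 68.3 and 174 ± 138 CPM, edgeR adjusted p = 0.0492), the growth factor receptor of oligodendrocyte precursors, each missed the threshold in 6 of the 8 fits with a library removed. For Fezf2 the exceptions were P0 1 and P0 4, for Pdgfra P8 2 and P8 3, and without P8 3 the P8 mean of Pdgfra was 109 CPM.

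SoxE targets and partners gave 10 higher and 1 lower of 15 tested, with a median log2 fold change of 3.50. The myelin gene Mag rose from 1.80 ± 0.681 to 95.6 ± 49.8 CPM and the myelin gene Mbp from 22.3 ± 7.33 to 914 ± 477 CPM (edgeR adjusted p = 1.75e-05 and 4.65e-05). Erbb3, the neuregulin receptor gene of Schwann cells and their precursors, fell from 29.8 ± 5.33 to 4.25 ± 2.20 CPM (edgeR adjusted p = 0.00062). The precursor and myelin marker lists, whose sums stand beside the Sox10 values, share several genes with these targets, among them Olig1, Olig2, Mbp, Mag and Cnp. Among the 9 genes listed as Groucho and beta-catenin partners 1 rose and 3 fell, with a median of -0.22. That called share was near the 49.5% of all genes tested, of which 25% were called lower. The one that rose, Tcf4, encodes a basic helix-loop-helix factor and is no beta-catenin partner despite its symbol. Of the other 8 genes, a split made after the values were seen, 3 fell and 5 were not called, with a median of -0.32. The called share of these 8 was also not above the 49.5% of all genes tested. Lef1 fell from 30.1 ± 11.8 to 9.30 ± 1.49 CPM, Tcf7l1 fell from 59.3 ± 7.63 to 29.8 ± 5.45 CPM, and Tcf4 rose from 182 ± 36.8 to 330 ± 39.2 CPM (edgeR adjusted p = 0.000745, 0.000896 and 0.00102).

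Of the 10 Sox genes outside the members, 8 were tested and 1 was called, Sox21. This SoxB2 gene, whose product represses targets of SoxB1 factors, rose from 8.02 ± 3.81 to 56.9 ± 9.73 CPM (edgeR log2 fold change 2.91, SE 0.34, adjusted p = 0.0001), with every P8 library above every P0 library. The third SoxC gene Sox12 stood at 41.7 ± 8.23 and 46.7 ± 12.8 CPM. Its edgeR log2 fold change was 0.24 with a 95% interval from -0.22 to 0.69 (edgeR adjusted p = 0.36). The third SoxD gene Sox13 stood at 36.5 ± 7.28 and 29.6 ± 4.64 CPM. Its edgeR log2 fold change was -0.22 with a 95% interval from -0.62 to 0.17 (edgeR adjusted p = 0.322). The SoxF genes Sox7, Sox17 and Sox18, known from blood vessel endothelium, stood at 18.8 ± 4.59 and 16.2 ± 6.88 CPM, at 10.4 ± 3.52 and 6.73 ± 2.70 CPM and at 8.77 ± 1.36 and 5.85 ± 1.55 CPM. Sox18 was called without P8 4, with an adjusted p of 0.0396. In the same libraries 8 of 10 endothelial markers fell and 1 rose. Sox15 and Sox30 averaged under 1 CPM at both ages, Sox14 did not exceed 0.0371 CPM in any library, and Sry had no read.

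The genes with the most similar pattern were sought among 10935 genes with a mean of at least 10 CPM, by Pearson's r of log2 CPM over the 8 libraries. These values are a description. The 8 points share the age difference and each gene pair shares its libraries. Sox2 was most like Nrxn3, a neurexin gene (r = 0.999), Fam59b (0.996) and Pax6 (0.996), and Sox3 was most like Kif21b, a kinesin gene (0.992), Pax6 (0.992) and Sox2 itself (0.991). Sox11 was most like Nol4 (r = 0.99), Elavl2 (0.987), which encodes a neuronal RNA-binding protein, and Dcx (0.987). Sox10 had no comparably close match, its nearest being Prr3 (r = 0.899). With the age means removed, Sox2 was still nearest to Nrxn3 (r = 0.992), Sox3 to Kif21b (0.99) and Sox10 to Prr3 (0.967), with Matn4 (0.959) and Smpd3 (0.954) next for Sox10. The other matches changed. Pax6 and Fam59b were no longer among the 3 genes nearest to Sox2, nor Pax6 and Sox2 among those of Sox3. Sox11 was then nearest to Spin1 (r = 0.979) and Rnf122 (0.969), Nol4 came next (0.967), and Elavl2 and Dcx were no longer among its 3 nearest.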

How the data were processed

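Per the labels' protocols, brain tissue was dissociated and GLAST-bearing cells were taken with a magnetic antibody kit before RNA isolation and TruSeq library preparation. The submitters' processing notes name TopHat and the build mm9, without a version. No source used here names the read counter or the annotation. The authors deposited whole-number counts per gene and library, CPM (count relative to the column total) and RPKM (CPM over gene length in kilobases), per the file headers, and these relations held to a relative difference under 1e-11. Libraries were grouped by the age in their titles. No pair of libraries of an age agreed within sampling noise (smallest chi-square over its degrees of freedom, 76.4).

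The test was edgeR 4.0.16 (R 4.3.3) over all 8 libraries, with filterByExpr (minimum count 10, minimum total 15), TMM and the quasi-likelihood test. P-values were adjusted by Benjamini-Hochberg over the 16808 genes that passed, among them all 10 members. The common biological coefficient of variation was 30.6%. Standard errors were derived from the F statistic. The steps were tested on simulated data. Levels are means ± SD of the 4 libraries of an age. Shares of RPKM among the members of a Sox group were compared by exact permutation tests, computed with numpy 2.4.6. DESeq2 1.42.0 and limma 3.58.1 (on log2(RPKM + 0.1)) served as alternatives, with other scalings, filters and left-out libraries.

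The members, the gene lists and the rules were chosen with earlier results of these data known. Text names the members, the other Sox genes, up to 3 called genes per partner or target list by size of change (higher mean at least 1 CPM), and the nearest genes by Pearson's r. Some genes that these rules name are not reported here, though list counts include them. Erbb3, which fell against its list, Sox2ot and single markers were named after their values were seen. The authors' own comparison columns were not used. Positions come from GENCODE M1 on NCBIM37, which is mm9, where 9 of 10 members matched by symbol. Promoter windows of 250 bases came from RefSeq on GRCm38.p6, where 7 of 10 members matched.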

Additional observations from a re-analysis of the deposited data

Results flagged for a closer look

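One set of values held a library far from the rest. Sox3 stood at 0.924 CPM in P0 1, and the nearest of the other P0 libraries stood at 2.54 CPM. The gap was 0.878 of the range of the 4 P0 libraries, above Dixon's 95% critical value. In all, 36 sets of 4 libraries were examined (levels of the 10 members and their shares, at each age), and 1 was picked out, where chance alone picks about 1 in 20. Without P0 1 Sox3 was still called higher at P8, since its adjusted p was at most 0.00562 in the fits that left out 1 library (edgeR).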

How the results depend on the processing

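In all 16 alternatives run on the member fits (RLE size factors, library totals only, DESeq2, limma on RPKM, no filter, a mean of at least 1 CPM, the replicate block, each library left out, and P0 1 with P8 2 left out together), 8 members were called higher and 0 lower. Of 240 recomputed differences, 233 kept their direction and their side of the threshold, and 57 of 62 recomputed counts were unchanged. Members whose ages did not overlap numbered 8 with TMM and 7 with RLE factors, in place of 6, and Sox5 overlapped with RLE factors. With library totals only, 2 SoxD partners in place of 3 were called higher and 4 genes of the Groucho list in place of 3 lower, and with the replicate block 11 SoxE targets in place of 10 were higher. The other 7 differences changed sign, none of them past a threshold in the main or the alternative fit. The log2 difference of Sox9 was -0.00964 without P0 1, and over the fits without 1 library it ran from -0.00964 to 0.407. The change in the share of Sox3 within SoxB1 (P8 minus P0) was -0.0501, -0.0162 and -0.203 percentage points without P0 1, P0 3 and P8 1, and ran up to 0.346. The change in the share of Sox10 within SoxE was 0.687, 0.508 and 1.51 points without P0 1, P0 4 and P8 2, and ran down to -8.85. The cause was not tested. For Sox8 and Sox5 the change in share ran from 19.2 to 21.7 and from -28.6 to -24.7 points. Whether replicate numbers pair the libraries is not stated in the labels. Correlations of the deviations of same-numbered libraries were -0.131, -0.056, 0.064 and 0.046. Those of differently numbered libraries ran from -0.128 to 0.229. With 4 libraries of each age, these values cannot decide whether same-numbered libraries share a batch. With the replicate number as a block, edgeR called 7355 genes in place of 8321 and still 8 members higher, with adjusted p for Sox5 of 0.0345. Within the replicate block a share could not go below a sign-flip p of 0.125. With library totals only, 44.4% of all calls were higher at P8, against 49.4%. Depth was not the limit for any member, the lowest count being 45 for Sox3 in P0 1.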
